A study of Mus musculus with 3 samples.

Results

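The guanylate-binding proteins (Gbp) were followed in 4T1 cancer stem cell spheroids (CSCsp), the spheres that 4T1 cells form in suspension culture. The family was defined by name, as the transcripts in the deposited tables that carry 1 of the symbols Gbp2 to Gbp11, and all 10 symbols were found among 24402 gene symbols. The genes Gbp2, Gbp3, Gbp5 and Gbp7 lie on chromosome 3 and the other 6 on chromosome 5. The family was chosen with its high level in 1 of the libraries already known, so the levels below are a description and carry no test.

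4T1 is a mouse triple negative mammary carcinoma line, given with the strain name Balb c/J. All 3 conditions used CSCsp grown for 7 days without serum and collected on a 40 µm strainer. In condition N the CSCsp had no co-culture. In condition P they were cultured with tumor antigen primed splenocytes, spleen cells of female Balb/c mice given 4T1 cells at 8 weeks of age, with spleens taken after 28 days, held in DPBS, a buffered saline. In condition R the primed splenocytes had reinforced activation with anti-CD3/CD28 dynabeads, which engage the T cell receptor and its costimulator, in the presence of IL2. The splenocytes were washed through a strainer before RNA extraction, so what was measured is the RNA of whole retained spheroids. By the study's methods, RNA of independent experiments was multiplexed, and the data used here hold 1 library per condition. There is therefore no measure of the spread between experiments, and the 95% intervals given below cover counting error only.

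N, P and R below mean the libraries labelled so, because the deposited names of 2 of them differ from their labels. Under its deposited name, the library labelled N points to DPBS, the saline used for the primed splenocytes, and the library labelled P points to no treatment. Lyz2, lysozyme of macrophages and neutrophils, had FPKM values of 28.9, 0.313 and 6.51 in N, P and R as labelled. Some other abundant leukocyte markers differed less or were higher in P than in N. Cd68 of macrophages was at 21.4, 18.0 and 19.2 and the integrin gene Itgb2 at 26.3, 35.9 and 33.4. Of markers with an FPKM of at least 1 in N or P, 5 of 6 of neutrophils were at least 2-fold lower in P than in N. So were 3 of 5 pan-leukocyte markers and 1 of 4 of macrophages and monocytes, and none of these lists held a marker 2-fold higher. Over all genes 3.54% of 10200 were lower. FPKM counts fragments per kilobase of transcript, scaled to the size of the library, and is a level per length. The comparison of P with N therefore has a direction that rests on the labels, while the library labelled R carries the highest Gbp levels whichever way the other two are named.

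Guanylate-binding proteins are large GTPases of the dynamin superfamily that interferons, above all interferon gamma, induce in most cell types. They assemble on the vacuoles and surfaces of intracellular pathogens, help to break these compartments open, and promote the inflammasomes that sense what is released. Gamma activated sites (GAS) and interferon-stimulated response elements (ISRE), the latter bound by IRF1, lie in the promoters of many Gbp genes.

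The 3 libraries held 17894139, 17887652 and 19178982 fragments (N, P and R), estimated from the aligned bases, with 300 bases to a read pair. In all, an FPKM of 1 or more was reached by 10464 symbols in some library, and by 9825 to 9881 in each. Of 11 listed epithelial markers 10 reached an FPKM of 1 in every library, among them Krt18, a keratin of luminal epithelium, at 779, 653 and 528.

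Summed over the 10 genes, the FPKM of the Gbp family was 64.4 for the library labelled N, 33.2 for that labelled P and 1002 for that labelled R. This was 0.0221%, 0.0118% and 0.352% of the FPKM of all named genes. The sum in R was 15.6 times that in N (95% interval 15.0 to 16.1) and 30.2 times that in P (28.8 to 31.5). The sum in P was 0.516 times that in N (0.488 to 0.545). RNA of the bulk was measured, in which fewer cells of a type and less RNA per cell cannot be told apart.

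**Figure D1:**
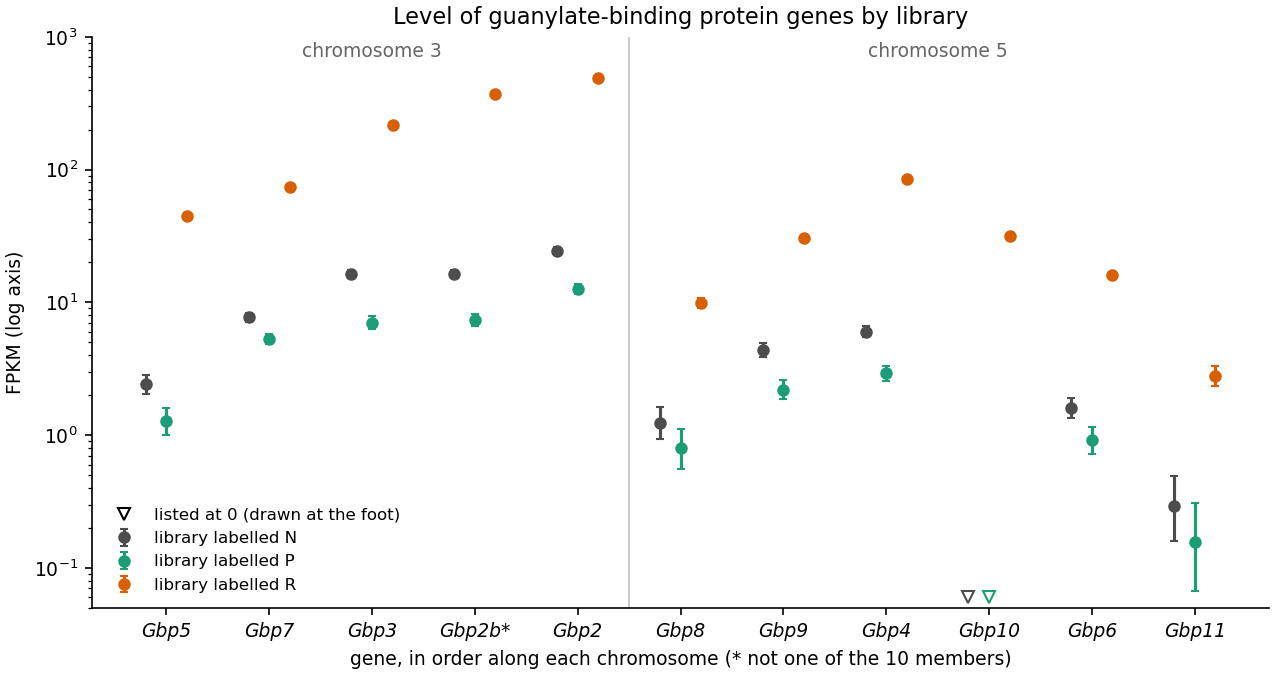
FPKM (log axis) of each Gbp gene by library label (N, P and R), 1 library per condition, with bars for the 95% counting interval and open triangles at the foot for Gbp10, which is listed at 0 in N and P. Every member is highest in R, and the 9 members with a value in N and P are lower in P than in N.

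The chromosome 3 genes made up most of the family. Gbp2, a prenylated member that anchors to membranes and is recruited to Toxoplasma vacuoles, is encoded at 142620663 to 142638008 on the plus strand, in 11 exons. Its FPKM was 24.5 in N, 12.6 in P and 492 in R, the highest level of the family in each library. Gbp2 was thereby the 1949th most abundant gene in N, the 3613th in P and the 72nd in R. The ratio of R to N was 20.1 (18.9 to 21.4) and that of R to P 39.1 (35.9 to 42.6), the largest ratios among the 9 members that have one.

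Gbp3 (142560052 to 142573212) came next, with an FPKM of 16.3, 7.03 and 215 in N, P and R. It was 13.2-fold higher in R than in N (12.3 to 14.2), and its rank among all genes was 2889 in N and 206 in R. Its ratio of P to N was 0.432 (0.379 to 0.492), the smallest of the family. Almost all of its level came from a pair of RefSeq transcripts with different starts. NM_018734, which starts at 142560052, had an FPKM of 9.38, 4.27 and 100 in N, P and R, and NM_001289493, which starts at 142560496, had 6.82, 2.75 and 114. The transcript with the downstream start was thus below the other in N and P and above it in R, although the split of reads between 2 transcripts that share most exons is an estimate.

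Gbp7 (142530336 to 142550151), which lies just upstream of Gbp3 and acts in host defence against vacuolar pathogens, was at 7.69, 5.33 and 73.7. Its ratio of P to N, 0.692 (0.619 to 0.774), was the nearest to 1 in the family, and its ratio of R to N was 9.58 (8.90 to 10.3). Gbp5 (142496934 to 142522489), a prenylated member known for promoting NLRP3 inflammasome assembly, had the lowest level of the cluster, at 2.41, 1.28 and 44.7. Its ratio of R to N was 18.5 (15.6 to 22.2), an interval that overlaps that of Gbp2. By named transcripts, Gbp2 and Gbp5 were thus at opposite ends of the cluster in level and close together in ratio. With transcripts assembled from the reads added, the ratio of Gbp5 was 15.6 (13.5 to 18.1) and that of Gbp2 20.4 (19.3 to 21.7). These intervals do not overlap.

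Promoter sequences are shown for these 4 genes, because they are the members with an entry in the RefSeq table of promoters (GRCm38.p6, 250 bases before to 50 after each start). Each line gives 170 bases on the plus strand, read 5′ to 3′, with matches to the ISRE letters in capitals. These are GAAA, any 2 bases and GAAA again, which on the other strand reads TTTC, any 2 bases and TTTC.
Gbp5, chr3:142496764-142496933: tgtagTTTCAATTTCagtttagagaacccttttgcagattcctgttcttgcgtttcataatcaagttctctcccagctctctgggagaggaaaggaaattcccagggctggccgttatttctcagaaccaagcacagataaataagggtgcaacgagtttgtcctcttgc
Gbp7, chr3:142530166-142530335: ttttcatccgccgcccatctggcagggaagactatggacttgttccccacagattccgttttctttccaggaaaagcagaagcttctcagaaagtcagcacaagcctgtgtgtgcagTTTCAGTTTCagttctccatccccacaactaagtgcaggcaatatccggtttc
Gbp3, chr3:142559874-142560043: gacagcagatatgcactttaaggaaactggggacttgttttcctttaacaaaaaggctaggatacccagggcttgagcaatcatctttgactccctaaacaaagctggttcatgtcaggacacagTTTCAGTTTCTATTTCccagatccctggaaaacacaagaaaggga
Gbp2, chr3:142620493-142620662: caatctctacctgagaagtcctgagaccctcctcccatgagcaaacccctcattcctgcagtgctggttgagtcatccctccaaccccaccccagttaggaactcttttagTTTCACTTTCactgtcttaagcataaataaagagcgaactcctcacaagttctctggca

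All 4 genes held an ISRE match in the 300 bases, and so did 3.44% of 32851 promoters of the same length. The match lay 59 to 50 bases before the start in Gbp2, 53 to 44 in Gbp7 and 165 to 156 in Gbp5. Gbp3 held a pair of overlapping matches, 45 to 36 and 39 to 30 bases before its upstream start, and a further entry of Gbp3, with a start at 142560356, held none. The GAS letters TTCNNNGAA, which read the same on both strands, were present in 2 of the 4 genes, with 2 matches each in Gbp5 and Gbp7, against 8.30% of all promoters. Both motifs together were in 0.454% of promoters. The GAS matches of Gbp7 lay 106 to 98 and 87 to 79 bases before the start, and those of Gbp5 lay 245 to 237 and 52 to 44 bases before it. A match to these letters is a description of the sequence and not a measured binding site. Gbp2b, a further gene of the cluster that is no member by name, held an ISRE match 137 to 128 bases before its start.

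On chromosome 5 the summed level was lower. By named transcripts, Gbp4 (105115767 to 105139586, minus strand) was the highest of the 6 in every library, at an FPKM of 6.02, 2.92 and 85.4. It was 14.2-fold higher in R than in N (12.9 to 15.6), and its ratio of P to N was 0.484 (0.413 to 0.567). Gbp9 (105078394 to 105110292) was at 4.397, 2.2004 and 30.4, with the smallest ratio of R to N in the family, 6.91 (6.10 to 7.85). The counting intervals of Gbp4 and Gbp9 overlapped in P and were far apart in R.

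Gbp6 (105270702 to 105294110) was at 1.60, 0.914 and 16.04, and its ratio of R to N was 10.03 (8.40 to 12.0). Gbp8 (105014153 to 105053561) was at 1.24, 0.799 and 9.91, and its ratio was 7.97 (6.02 to 10.7). Gbp11 (105323026 to 105346476), which the annotation classes as a polymorphic pseudogene, was near the floor of detection in N and P, at 0.292 and 0.156 from an estimated 14 and 8 fragments, and at 2.79 in R from 145 fragments.

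Gbp10 (105215699 to 105239549) was listed at 0 in N and P and at an FPKM of 31.7 in R, from 2153 estimated fragments, so that no ratio is given. Whether the division of reads between similar genes set this 0 was not tested. Of the 150-base windows along the Gbp10 transcript, 44.6% occur unchanged in Gbp6, and 30.3% of those of Gbp6 occur in Gbp10. A further annotated model, Gm43302 (105214907 to 105293695), overlaps both genes. StringTie also built 2 transcripts of 11 exons that span Gbp10 and Gbp6, and these had an FPKM of 3.67 and 1.07 in N, 2.12 and 1.14 in P, and 31.8 and 21.7 in R. Taken as 1 unit of 5 transcripts, Gbp6, Gbp10 and the assembled transcripts on them had an FPKM of 6.34, 5.57 and 137. The ratio of R to N of this unit was 21.5 (19.7 to 23.5), and that of P to N was 0.878 (0.770 to 1.00). The values of Gbp6 and Gbp10 taken singly are uncertain. Gbp4 and Gbp11 shared 2 such windows, and no other pair of members shared any.

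At the level of clusters, the 4 chromosome 3 genes summed to an FPKM of 50.8, 26.2 and 825, and the 6 chromosome 5 genes to 13.6, 6.99 and 176. The ratio of R to N was 16.2 (15.6 to 16.9) on chromosome 3 and 13.0 (12.2 to 13.9) on chromosome 5, intervals that do not overlap. The ratio of P to N was 0.516 on chromosome 3 and 0.515 on chromosome 5 for the named transcripts. For the assembled transcripts of these loci, which are not in the sums, it was 0.381 on chromosome 3 and 0.876 on chromosome 5, where their FPKM of 15.8 in N was above that of the named ones. By named transcripts, chromosome 3 held 79.0% of the family's FPKM in N, 79.0% in P and 82.4% in R. These shares and those that follow leave out the assembled transcripts. The latter had an FPKM of 2.16, 0.821 and 53.6 on chromosome 3 and of 15.8, 13.8 and 205 on chromosome 5. Within the family the share of Gbp2 was 38.0%, 37.9% and 49.2% in N, P and R, while that of Gbp7 was 11.9%, 16.03% and 7.36% and that of Gbp9 was 6.83%, 6.62% and 3.03%. The composition of the family in R was therefore tilted towards Gbp2.

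The order of levels by named transcripts was the same in N and P apart from Gbp10, which had no value in either. It ran from Gbp2 through Gbp3, Gbp7, Gbp4, Gbp9, Gbp5, Gbp6 and Gbp8 to Gbp11. Neighbours whose counting intervals overlapped were Gbp6 and Gbp8 in N, and in P the pair Gbp4 and Gbp9 and the pairs Gbp5 and Gbp6, and Gbp6 and Gbp8. In R, Gbp4 and Gbp5 had moved up, to the third and the fifth place, and Gbp10 and Gbp9 followed with overlapping intervals. With assembled transcripts added to the genes, Gbp9 was at 12.2 and 8.98 in N and P, above Gbp4 at 7.96 and 4.14 in both and above Gbp3, at 16.3 and 7.03, in P.

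For counts of genes, a gene was taken as apart where the ratio of FPKM + 0.1 was at least 2 and the higher FPKM of the pair was 1 or more. All 10 members were at least 2-fold higher in R than in N, where 5.17% of 10270 genes were higher and 3.8% lower, and Gbp10 and Gbp11 reached the minimum level through R alone. In R over P the count was also 10 of 10, against 6.21% of 10292 genes higher and 3.69% lower, with Gbp6 and Gbp8 too reaching the minimum through R alone. None of 8 members above the minimum was 2-fold higher in P than in N, where 2.74% of 10200 genes were, and 2 of the 8, Gbp3 and Gbp4, were at least 2-fold lower, where 3.54% were. The median log2 ratio of the members above the minimum was -0.91 in P over N, and 3.48 and 4.41 in R over N and R over P. Over all genes counted it was 0.02, 0.09 and 0.06. N and P are both set against R here, and P over N shares its denominator with R over N, so these comparisons are not independent. Because the family was chosen for its level in R, nothing is read from the counts against R.

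**Figure D2:**
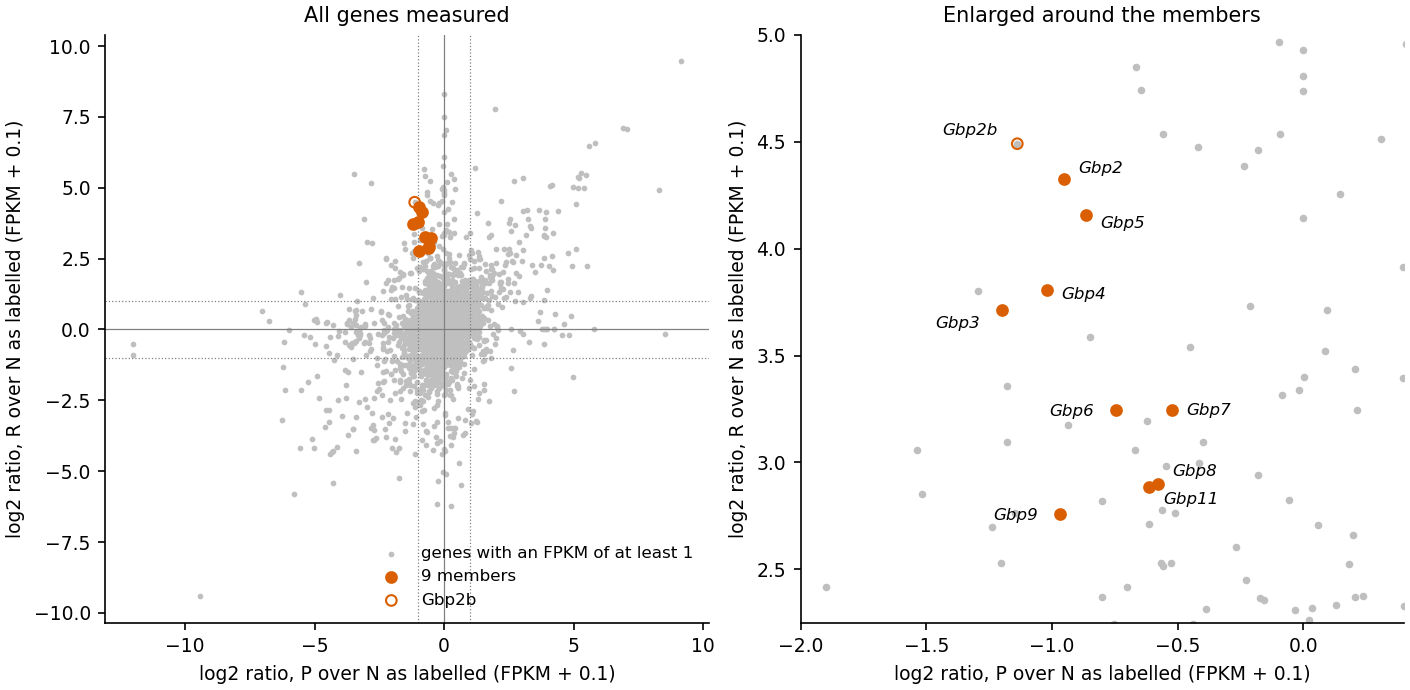
Log2 ratio of P over N against that of R over N, as labelled, with 0.1 added to FPKM, for genes that reached an FPKM of 1 (left) and enlarged around the family (right). The 9 members drawn lie between -1.20 and -0.52 on the horizontal axis and between 2.76 and 4.32 on the vertical axis, Gbp10 is left out because it is listed at 0 in N and P, and both axes share library N.

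The ratio of P to N was below 1 for each of the 9 members with a value, from 0.432 for Gbp3 to 0.692 for Gbp7. For 7 of them the counting interval lay below 1. The exceptions were Gbp8, at 0.643 (0.408 to 1.00), and Gbp11, at 0.535 (0.194 to 1.37). These ratios are of named transcripts, and that of Gbp6 taken singly is uncertain. With assembled transcripts added, several on chromosome 5 came nearer to 1, with Gbp6 at 0.842, Gbp8 at 0.770 and Gbp9 at 0.736. Gbp10 then had a ratio of 1.06 (0.786 to 1.43), while Gbp5 on chromosome 3 was lower, at 0.436. With 1 library per condition, whether a difference of this size exceeds the spread between experiments was not tested.

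Coverage was also read exon by exon. In the RefSeq transcript of each of the 10 members with the highest mean FPKM over the 3 libraries, for Gbp3 NM_001289493, coverage was highest in R in every exon. Gbp2 was the most even, with ratios of R to N between 19.5 and 23.5 over its 11 exons, and Gbp7 followed with 9.18 to 12.4. Gbp6 was less even, with ratios from 2.996 to 18.8, and Gbp9 ranged from 3.92 to 10.4. The RefSeq transcript of Gbp10 was given no coverage in any exon in N or P, and between 86.7 and 411 reads per base in R. This is the coverage allotted to that transcript, and not all reads on these exons. With the assembled transcript matched to it added, Gbp10 was at an FPKM of 1.07, 1.14 and 53.3 in N, P and R. Coverage in P was below that in N in all exons of Gbp2, Gbp3, Gbp4, Gbp5, Gbp6, Gbp7 and Gbp9, in 8 of 10 exons of Gbp8 and in 6 of 11 of Gbp11.

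**Figure D3:**
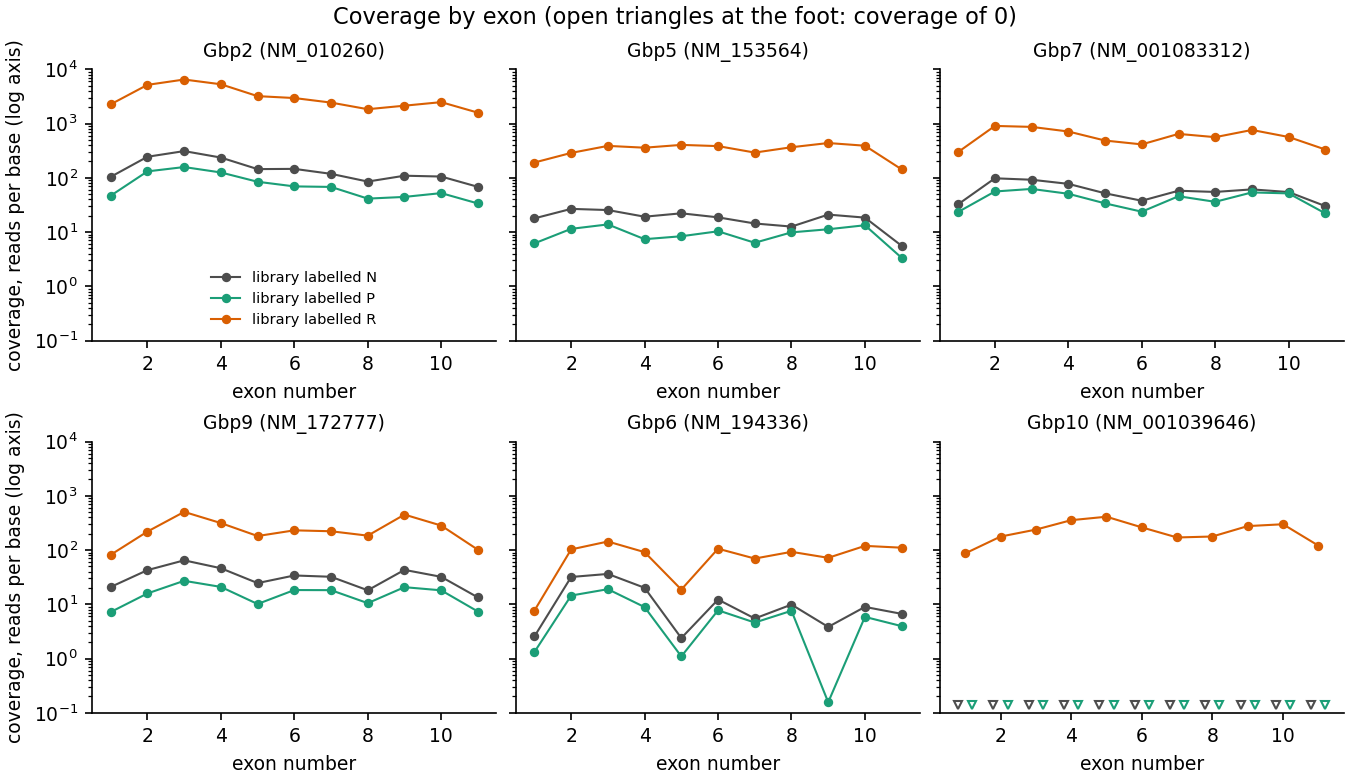
Coverage in reads per base (log axis) along the exons of the RefSeq transcript of highest mean FPKM of 6 Gbp genes, by library label (N, P and R). The line of R lies above those of N and P in every exon of these genes, and open triangles at the foot mark exons with a coverage of 0.

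StringTie joined neighbouring Gbp genes into common loci. Gbp5 and Gbp11 each had a locus of their own, Gbp7 shared 1 with Gbp3, Gbp2 shared 1 with Gbp2b, and Gbp8, Gbp9, Gbp4, Gbp10 and Gbp6 fell into a single locus. In these loci 15 transcripts were assembled from the reads in addition to RefSeq, 4 on chromosome 3 and 11 on chromosome 5. Their FPKM summed to 17.9, 14.6 and 259 in N, P and R, each of the 15 was highest in R, and 3 were listed at 0 in N and P. Of the 15, 8 shared at least 50 bases with the exons of more than 1 gene and accounted for 7.65, 5.49 and 153. Examples are a transcript spanning Gbp7 and Gbp3, at 0, 0 and 12.2, and another spanning Gbp4, Gbp10 and Gbp6, at 1.63, 1.09 and 38.1. Gbp9 had 3 assembled transcripts of its own, which differed in how they moved. The first was at 2.89, 2.82 and 5.31, the next at 2.12, 2.84 and 24.4, and the last at 2.78, 1.12 and 8.57. These transcripts carry no gene name in the tables and are not part of the sums per gene.

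**Figure D4:**
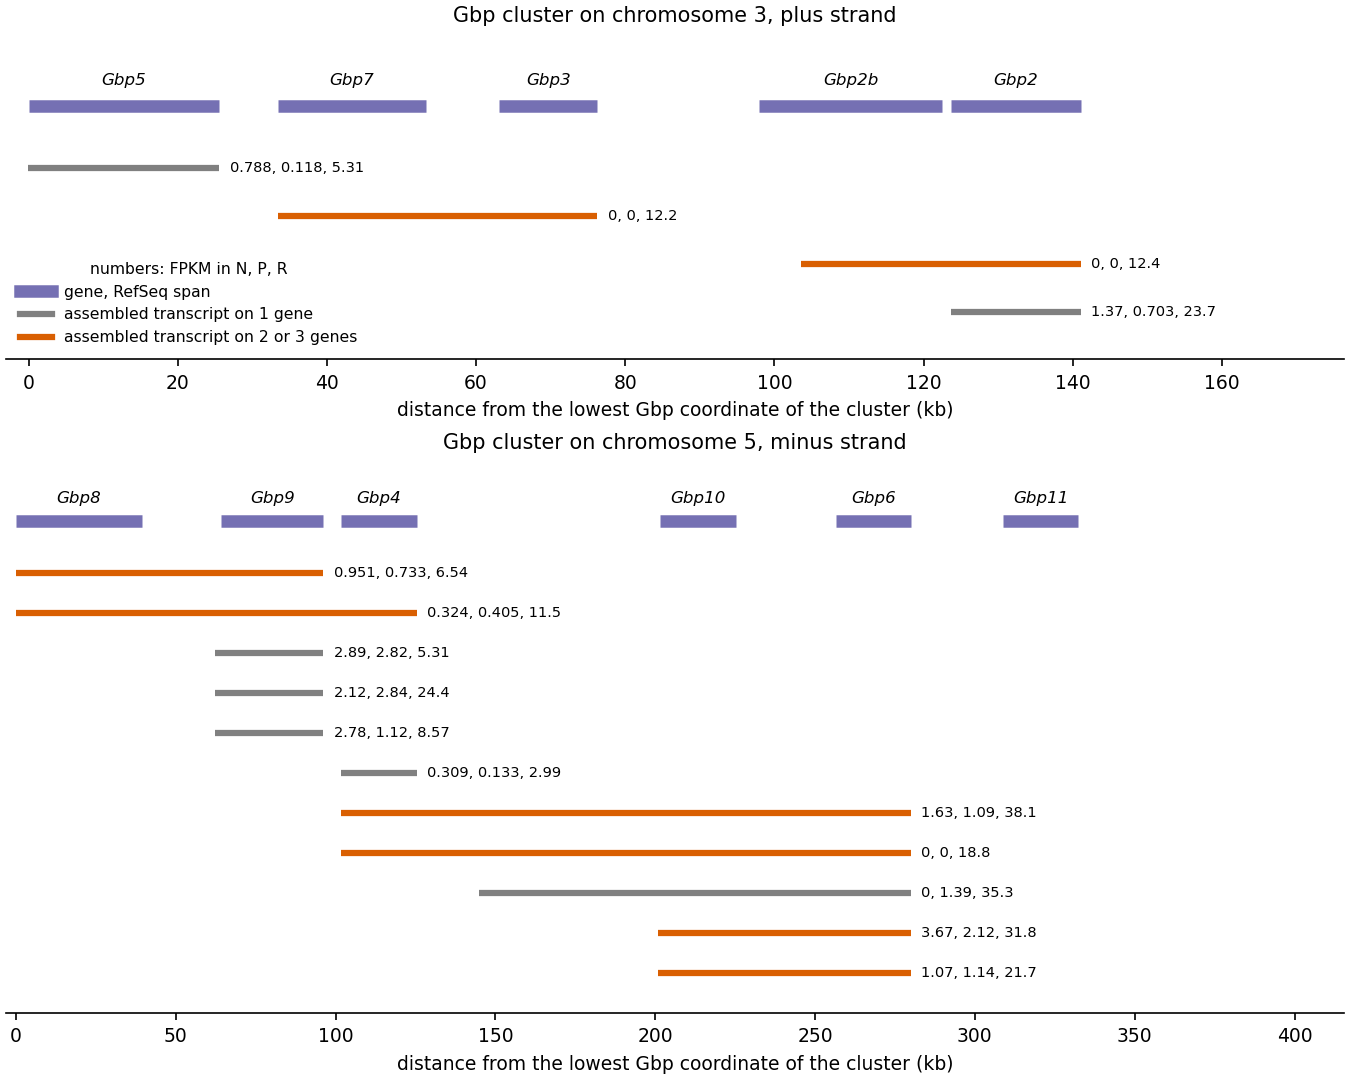
Spans of the Gbp genes (RefSeq) and of the 15 assembled transcripts along the chromosome 3 and chromosome 5 clusters, in kb from the lowest Gbp coordinate, with the FPKM in N, P and R printed beside each assembled transcript. Transcripts that cover more than 1 gene are in orange and those on a single gene in grey, and the last of the 3 numbers, that of R, is the highest for each.

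Gbp2b, whose gene lies between Gbp3 and Gbp2, was not among the member symbols. Its FPKM was 16.3, 7.37 and 370, with a ratio of R to N of 22.6 (21.2 to 24.2). By named transcripts this interval overlaps those of Gbp2 and Gbp5. With assembled transcripts added, it overlaps that of Gbp2 (19.3 to 21.7) and not that of Gbp5 (13.5 to 18.1). In its transcript 8 of 11 exons were highest in R. The other 3, exons 1 to 3, had a coverage of 0 in P and R and of 0, 0 and 0.266 in N. Gbp2, in the same locus, had its highest coverage in exons 2 to 4 in each library, at 5157, 6469 and 5289 in R. No 150-base window of either transcript occurs unchanged in the other. Whether reads were divided between Gbp2 and Gbp2b was not tested.

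The nearest expressed genes on each side of the clusters, 63.0 to 3422 kb away, showed much smaller differences. Pdlim5, 101 kb on the lower side of the chromosome 3 cluster, was at an FPKM of 29.3, 28.5 and 28.4, and Gtf2b, a general transcription factor gene on the higher side, was at 21.1, 19.6 and 24.6. Ccbl2, 63.0 kb on that side, was at 0.598, 0.626 and 1.30, a ratio of R to N of 2.17 (1.32 to 3.66). Beside the chromosome 5 cluster, Lrrc8b, a subunit of volume-regulated anion channels, was at 4.21, 3.56 and 7.06, a ratio of 1.68 (1.41 to 1.99), and Lrrc8c and Pkd2, at distances of 173 and 508 kb, had ratios of 1.146 and 1.06. The 8 neighbours examined, 2 on each side, had ratios of R to N from 0.969 to 2.17.

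The genes most like the family were sought among 6959 genes that reached an FPKM of 5 in some library, by the distance between their log2 ratios of P over N and R over N and those of the family sum. The likeness covers 3 libraries. The nearest were Cxcl11, an interferon-induced chemokine, at a distance of 0.375 and an FPKM of 2.64, 1.02 and 38.1, and Igtp, an immunity-related GTPase, at 0.384 and 28.8, 15.99 and 348. Gbp2b followed at 0.565. After it came AA467197, Whsc1, Ifi47, Batf2, Ly6c2 and Irgm1, at distances from 0.640 to 0.831. Igtp, Ifi47 and Irgm1 belong to another family of interferon-inducible GTPases, and Batf2 is an interferon-inducible transcription factor.

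Genes upstream of the family were read as RNA of the retained spheroids. Ifng was listed at 0 in all 3 libraries. The splenocytes had been washed away before RNA extraction, so this 0 does not measure the interferon gamma present in the cultures. None of the 4 other genes of the interferon gamma receptor list differed 2-fold in any comparison. Ifngr2, a receptor chain, was at 30.8, 19.7 and 26.2, and Jak2, its kinase, at 45.2, 25.3 and 44.0. Of the 11 genes of type I and III interferons and their receptors, 4 were above the minimum level and none differed 2-fold between R and N, while Ifnar2, a chain of the type I receptor, was at 11.9, 10.2 and 23.2 and so at least 2-fold higher in R than in P.

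Transcription factors that act on Gbp promoters differed more. Irf1, Irf7, Irf8, Irf9, Stat2 and Batf2 were each at least 2-fold higher in R than in N. Irf1, the factor that binds ISRE elements after interferon gamma, was at 77.8, 51.1 and 261. Irf7 was at 42.0, 33.0 and 195, Stat2 at 1.84, 0.673 and 7.71, and Batf2 at 0.721, 0.515 and 18.2. Stat2 was also at least 2-fold lower in P than in N.

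Feedback inhibitors of interferon signaling were mixed. Of 7 genes, 2 were at least 2-fold higher in R than in N, where 5.17% of 10270 genes were. The 2 were the JAK inhibitor Socs1 at 4.36, 1.84 and 25.7 and the type I receptor inhibitor Usp18 at 21.7, 16.6 and 55.8. The median log2 ratio of the 7 genes was 0.27. Cish, which is induced by cytokines that signal through STAT5, was at 11.3, 1.28 and 13.1, and so differed between P and the other libraries. Socs3 was higher in P than in N and lower in R than in P.

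Other GTPases differed from list to list. Of the immunity-related GTPases, 14 of 17 listed symbols were matched, 8 reached the minimum level, and all 8 were at least 2-fold higher in R than in N and in P, although 3 of them, Ifi47, Gm12250 and 9930111J21Rik2, reached it through R alone. Over all genes 5.17% of 10270 were higher in R than in N, and 6.21% of 10292 were higher in R than in P. The median log2 ratio of the immunity-related GTPases against N was 4.69, and 3.27 with no minimum level. They share functions with the Gbp proteins at pathogen vacuoles, and among them Tgtp1, a near copy of Tgtp2 and uncertain for that reason, was at 2.096, 1.18 and 110 and Gm12250 at 0.855, 0.467 and 40.3. Gm4070, the sole very large inducible GTPase above the minimum, was at 1.51, 0.456 and 13.3. Atlastins and other GTPases of the dynamin superfamily, which are related by structure, had a median log2 ratio of 0.19. Of 9 such genes, Atl3, which shapes the endoplasmic reticulum, was at 5.98, 6.68 and 14.7 and was past 2-fold higher in R than in N. Dnm1, a dynamin of endocytosis, was at 3.57, 4.05 and 1.73 and was past 2-fold lower. This list also holds the antiviral gene Mx2, which was at 12.3, 6.14 and 9.56, a ratio of R to N of 0.774 (0.681 to 0.880).

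Among the partners of Gbp proteins, 6 of 16 inflammasome and pyroptosis genes were above the minimum. Of the 6, 2 (Casp1 and Zbp1) were at least 2-fold higher in R than in N, where 5.17% of 10270 genes were. Zbp1, a sensor of Z-form nucleic acids, was at 12.9, 5.77 and 88.2. Casp4, the mouse caspase that binds bacterial lipopolysaccharide, was at 11.6, 8.12 and 21.5 and was past 2-fold in R over P alone. Ninj1, which ruptures the plasma membrane in dying cells, was at 61.7, 59.9 and 51.0. None of 6 prenylation enzymes, which attach the lipid that Gbp2 and Gbp5 need for membrane binding, differed 2-fold in any comparison, and Fnta, a subunit of farnesyltransferase, was at 31.8, 34.7 and 27.4. Of 13 ATG8 conjugation and ubiquitin genes, which place Gbp proteins on vacuoles, none was at least 2-fold higher in R than in N, and Gabarap, at 90.9, 57.8 and 36.5, was at least 2-fold lower. The list's median log2 ratio was -0.10.

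Of 19 other targets of interferon gamma above the minimum, 15 were at least 2-fold higher in R than in N and none was lower. Over all genes 5.17% of 10270 were higher. Among the 15, Ido1 and Ciita reached the minimum through R alone. The median log2 ratio of the list was 2.04, and 1.86 with no minimum level. Ciita, the master regulator of MHC class II genes, was at 0.320, 0.256 and 8.69, and B2m, the light chain of MHC class I, at 1000, 888 and 2062. In P over N, 4 of 17, Cxcl10, Cxcl11, Nlrc5 and Nos2, were at least 2-fold lower, where 3.54% of 10200 genes were. H2-D1, a heavy chain of MHC class I whose reads may be divided with related class I genes, went the other way, at 26.5, 243 and 493.

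**Figure D5:**
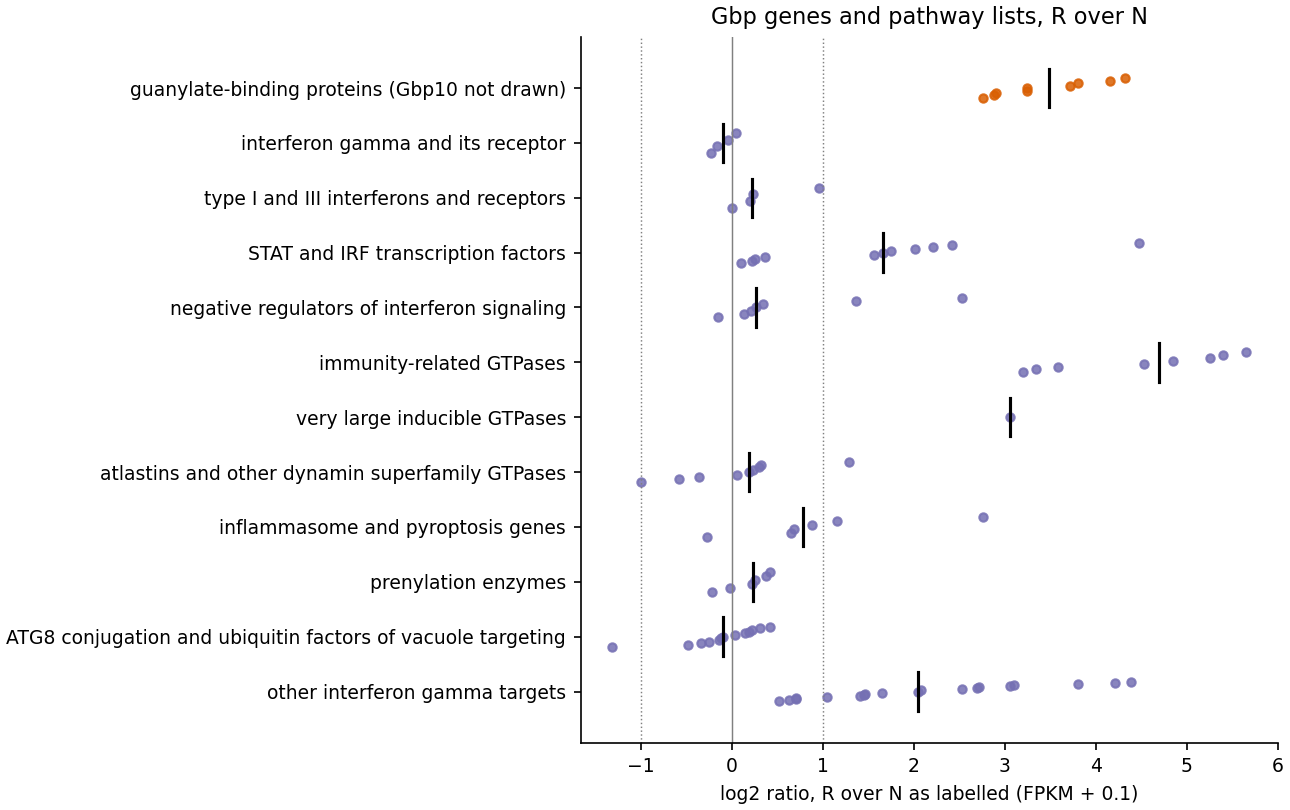
Log2 ratio of R over N as labelled, with 0.1 added to FPKM, for each Gbp gene and each gene of the 11 pathway lists that reached an FPKM of 1, with a black line at the median of each list. The medians of the immunity-related GTPases, the Gbp genes and Gm4070 are the highest at this minimum, at 4.69, 3.48 and 3.06 (that of the immunity-related GTPases is 3.27 with no minimum), Gbp10 is not drawn but is counted in the median, and the medians of the receptor, prenylation, ATG8 and atlastin lists lie between -0.10 and 0.23.

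Markers of other cells that could remain with the spheroids were read in the same libraries. Of 60 leukocyte markers, 15, 6 and 16 reached an FPKM of 1 in N, P and R, their FPKM summed to 155, 96.0 and 148, and 16, 35 and 13 were listed at 0. Single markers moved both ways between N and R, and both Lyz2 above and Ltf, lactoferrin of neutrophils and some epithelia, at 16.1, 12.3 and 11.3, were lower in R. Mpeg1, a macrophage gene, was at 0.697, 0 and 6.59. None of the 10 T cell markers matched, of 13 listed, reached an FPKM of 1. The highest of them, the kinase Lck, was at 0.494, 0.505 and 0.847, and Cd3e, a chain of the T cell receptor complex, was at 0, 0 and 0.077. Ptprc, the pan-leukocyte gene that encodes CD45, was at 0.201, 0 and 0.305. Gzmb, granzyme B of cytotoxic lymphocytes, was at 0.275, 0 and 1.58, and Ly6c2, a marker of monocytes that interferon also induces, was at 2.06, 1.03 and 19.4. The part of leukocyte RNA in the Gbp levels was not tested.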

How the data were processed

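Each of 3 libraries, grouped by label, stands for 1 condition of 4T1 CSCsp RNA. Reads were aligned by the authors with HISAT2 2.2.0, and StringTie then quantified RefSeq transcripts and those it assembled. Its version is 2.1.3 in the submitters' processing notes but 2.1.5 in the headers. The authors deposited coverage, FPKM and TPM for every transcript in a text field. The notes name mm9, whereas the coordinates overlap the GRCm38 gene of the same symbol for 99.4% of 23320 symbols, so coordinates are given as in the files and RefSeq promoters are of GRCm38.p6. No read filter is given in the sources used here.

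FPKM was summed per gene over the transcripts that carry its name. A transcript listed at 0 in a library lacks the name there, and took it from the other libraries. Assembled transcripts carry no name and held 23.0% to 24.0% of all FPKM. Of all symbols, 1478 share a StringTie locus with another symbol, and reads of such loci may be split between genes. Fragments were estimated as coverage times length over 300 bases. Intervals are exact Poisson (levels) and Clopper-Pearson (ratios), at 95%. Log2 ratios used a pseudocount of 0.1 FPKM, which understates the change of low genes. With 1 library per condition there was no test between conditions. Assembled transcripts were matched to genes by at least 50 shared exonic bases. Python 3.11.15, NumPy 2.4.6, pandas 2.3.3 and SciPy 1.17.1 were used, and the interval and ratio steps were tested on simulated data.

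The members and the 11 pathway and 9 marker lists were chosen with earlier results of these data known. Genes were named by rule: all members and other Gbp symbols, the 2 nearest expressed genes on each side of each cluster, the 8 genes most alike, from each pathway list the 2 highest genes and the 2 with the largest ratio for R over P, and from each marker list the highest gene in each library. Some of the list genes that the rule takes are described in the counts alone. Genes listed by name as past 2-fold, and Cd3e, Ptprc, Mpeg1, Mx2 and Ifng, were named in addition after their values were seen. The counts of the list of STAT and IRF transcription factors are not reported here. Alternatives were TPM, other pseudocounts, other minimum levels, the single transcript of highest mean per gene, division by the median ratio over 9236 genes, RefSeq transcripts alone, and an exchange of the labels N and P. Adding assembled transcripts, counting Gbp2b as a member, and leaving out Gbp10 were added after the data were seen.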

Additional observations from a re-analysis of the deposited data

How the results depend on the processing

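Of the 30 member ratios (10 genes in 3 comparisons), that of Gbp10 in P over N had no direction, because both levels were listed at 0. The other 29 kept their direction under TPM, a pseudocount of 1 or 0.01, rescaling by the median ratio and the transcript with the highest mean. They also kept it with assembled transcripts added, where Gbp10 in P over N was at 0.08. RefSeq transcripts alone gave the reported values, because assembled transcripts carry no gene name. With assembled transcripts Gbp9 was above Gbp4 in N and P. The median log2 ratio of the immunity-related GTPases for R over N, 4.69, was 3.59 with assembled transcripts and 3.27 with no minimum level. A minimum of 5 FPKM left 9 members higher in R than in N and in P. The log2 ratio of the family sum, 3.96 for R over N, was 3.87 after rescaling, 4.04 for the transcript with the highest mean, 4.08 with Gbp2b counted and 3.91 without Gbp10. For R over P, 4.91 became 4.85 after rescaling, 4.72 with assembled transcripts added and 5.07 with Gbp2b. For P over N, -0.95 became -0.78 with assembled transcripts. The number of members at least 2-fold lower in P than in N fell from 2 to 1 under TPM and under a pseudocount of 1.

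Exchanging the labels N and P turned the family sum of P over N to 0.95, with R over N at 4.91 and R over P at 3.96. Then 2 members were at least 2-fold higher and 0 lower in P than in N, with Gbp3 at 1.20, Gbp4 at 1.02 and the median of the very large inducible GTPases at 1.54.

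Counts over all genes moved more. For P over N, 279 higher and 361 lower genes became 524 and 575 under TPM, 664 and 893 with no minimum level, 88 and 123 at 5 FPKM, 156 and 228 with a pseudocount of 1, and 59 and 173 with assembled transcripts. For R over N, 531 and 390 became 802 and 594, 948 and 872, 291 and 134, 377 and 230, and 346 and 211 in the same order, and for R over P, 639 and 380 became 887 and 644, 1171 and 854, 360 and 146, 470 and 219, and 466 and 190. The cause was not tested.

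No paired analysis was possible because each condition has 1 library. Leaving out a replicate was not possible for the same reason. The main limits are the missing spread between experiments, the doubt about labels N and P, the division of reads between Gbp6 and Gbp10, and the few fragments of Gbp11, Gbp8 and Gbp5 in P (an estimated 8, 35 and 72).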
